A study of Mus musculus with 8 samples.

Results

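The genes described here are the receptors of the gp130 cytokine family with the factors that act below them, 10 genes chosen by symbol among the 22880 gene IDs of the soleus count files. They are the shared receptor chain Il6st (gp130), the receptor genes Il6ra, Il11ra1, Cntfr, Lifr and Osmr, the cytokine Lif, the transcription factor Stat3, and Socs3 and Cish of the suppressor of cytokine signalling family. All 10 had an ID in the files, and all 10 had enough counts to be tested among 14001 genes. RNA was measured in the soleus (a calf muscle rich in slow fibres that holds posture) of 4 control mice (Dnm2 +/+) and 4 Dnm2 +/K562E mice. All were 2 months old and on a C57BL/6 background per the labels. The study's methods give the background as C57BL/6J and the mice used for RNA as male. The mutant allele, named for the Dnm2 K562E mutation linked to a human neuropathy, was made by homologous recombination at the mouse Dnm2 locus and is present in 1 copy in every cell, with a LoxP site left behind in an intron. No Cre driver limits it to the muscle fibres, so that fibres, connective tissue, vessels, nerve and immune cells of the muscle all carry it.

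Cytokines of this family bind a specific receptor chain and then bring in gp130, alone or together with the LIF receptor or the oncostatin M receptor. The receptor chains carry JAK kinases, which phosphorylate STAT3, and STAT3 enters the nucleus and switches on target genes that include Socs3. SOCS3 binds gp130 and shuts the signal down, while CISH and SOCS2 act in the same way on receptors that use STAT5, such as those of growth hormone and erythropoietin. In muscle, LIF, CNTF and Il6 are known for their roles after injury and nerve damage.

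STAT factors bind DNA at the palindrome TTCNNNGAA, which reads the same on both strands. It was searched for in RefSeq promoters of build GRCm38.p6, from 250 bases before to 50 bases after each start, of which 17 belonged to the 10 genes. Only the promoters of Cish and Socs3, 2 of the 17, held it, against 8.30% of all 32851 promoters. The stretches around these matches are printed 5′ to 3′ on the strand of the gene, with the motif in capitals.
Cish: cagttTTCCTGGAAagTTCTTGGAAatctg
Socs3: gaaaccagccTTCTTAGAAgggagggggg
The Cish stretch lies at chr9:107296654-107296683 on the plus strand and holds 2 motifs, which begin at bases 1 and 12 counted from the RefSeq start. It falls in a UTR exon of a longer GENCODE M21 transcript of Cish. Of all promoters, 0.457% held 2 or more motifs. The Socs3 stretch lies at chr11:117969502-117969530 on the minus strand, with its motif beginning 154 bases before the RefSeq start (position -154). GENCODE M21 places it in an intron of another Socs3 transcript. A match is a description of the sequence and was not tested for binding.

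Each mouse had between 33407430 and 48832814 counts. Levels are given as normalized CPM, in which counts are divided by the library size and by the TMM factor of edgeR. The factor was 0.915 to 0.959 in controls and 1.04 to 1.10 in Dnm2 +/K562E mice, so that scaling moves the genotypes relative to each other. Dnm2 itself was at 66.3 ± 4.74 CPM in controls and 73.4 ± 2.43 CPM in Dnm2 +/K562E mice (SD, n = 4 each; log2 fold change 0.15, adjusted p = 0.0909, edgeR quasi-likelihood test), a level that does not report on a single-base change. The slow fibre markers summed to 19590 to 23078 CPM in controls and 11364 to 14375 CPM in Dnm2 +/K562E mice. The fast fibre markers summed to 41818 to 43262 CPM in controls and 25583 to 30525 CPM in Dnm2 +/K562E mice, so both sums were lower. In whole muscle, fewer cells of a type and less RNA per cell cannot be told apart. Nothing in the labels says that the mice came from separate litters or that libraries were made on separate days, and p-values measure the spread between these mice.

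Of the 10 genes, 2 rose in Dnm2 +/K562E soleus (Stat3 and Cntfr), 2 fell (Lifr and Cish), and 6 did not pass the test at an adjusted p under 0.05. In the background, 43.8% of all tested genes passed, 22.2% of them higher and 21.7% lower, so the share among the 10 is near that of the whole table. With the added threshold of a log2 fold change of 0.58 in either direction, only Cntfr (higher) and Cish (lower) remained, against 20.7% of all tested genes, made up of 12.9% higher and 7.85% lower. The genotypes did not overlap for 4 of the 10 genes, 2 above and 2 below, where 41.2% of all tested genes did not overlap, 20.6% above and 20.5% below. The median log2 fold change was 0.12 over the 10 genes and 0.0074 over all tested genes.

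**Figure D1:**
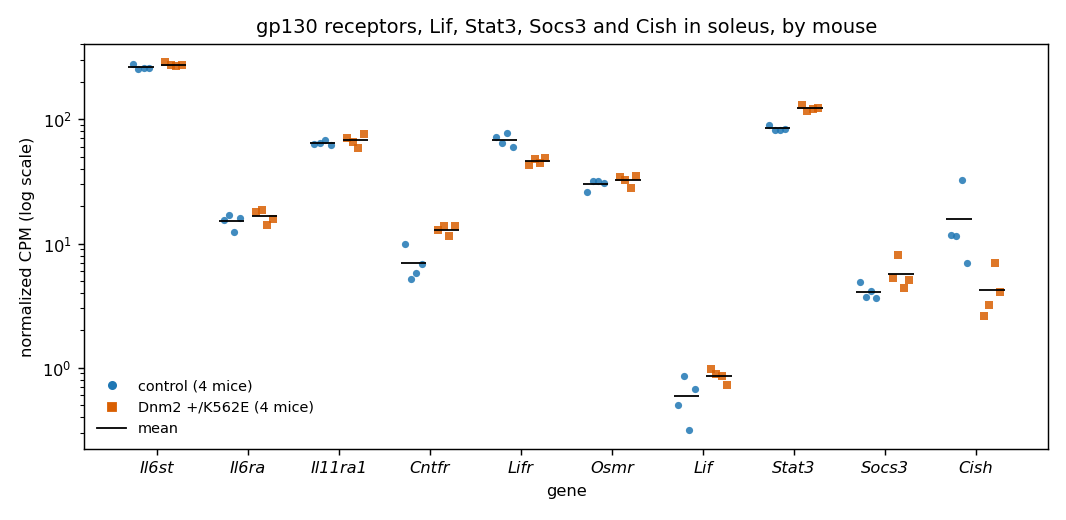
Normalized CPM of the 10 genes in each mouse, side by side on a shared log axis. Points are mice of the control and Dnm2 +/K562E groups (4 each) and lines are group means. Stat3 and Cntfr lie higher and Lifr and Cish lower in every Dnm2 +/K562E mouse than in any control.

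The shared chain gp130 did not pass the test, and its interval was narrow. Il6st was at 279, 255, 260 and 260 CPM in controls 1 to 4 and at 287, 272, 270 and 274 CPM in Dnm2 +/K562E mice 1 to 4. The genotypes overlapped, and the log2 fold change was 0.07 (SE 0.05, 95% interval -0.05 to 0.19, adjusted p = 0.354, edgeR quasi-likelihood test). Its spread between mice was also small, with a coefficient of variation of 3.99% in controls and 2.75% in Dnm2 +/K562E mice, beside a median of 11.3% and 9.47% over all tested genes. The 3 genes whose profile over the 8 mice was closest to that of Il6st, by the root mean square difference of centred log2 CPM, were Otub1 (0.0232), Tbce (0.0233) and Smu1 (0.0306).

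Of the receptor chains that bind a cytokine first, Cntfr rose, and Il6ra and Il11ra1 did not pass the test. Cntfr (chr4:41657498-41697089), which encodes the chain that binds CNTF and lacks an intracellular part, was at 9.86, 5.14, 5.82 and 6.86 CPM in controls 1 to 4. In Dnm2 +/K562E mice 1 to 4 it was at 12.7, 13.8, 11.6 and 13.8 CPM. Every Dnm2 +/K562E mouse lay above every control, with control 1 the nearest, and Cntfr rose by a log2 fold change of 0.91 (SE 0.18, 95% interval 0.52 to 1.30, adjusted p = 0.00184, edgeR quasi-likelihood test), a 1.88-fold higher level. Leaving out any single mouse kept the log2 fold change between 0.79 and 1.12.

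Il6ra, the chain that binds Il6, was at 12.3 to 17.0 CPM in controls and at 14.1 to 18.6 CPM in Dnm2 +/K562E mice. The fitted log2 change was 0.13 (95% interval -0.13 to 0.39). Il11ra1, the chain that binds Il11, was at 62.1 to 68.5 CPM in controls and at 58.2 to 76.0 CPM in Dnm2 +/K562E mice, and its log2 fold change was 0.06 (95% interval -0.12 to 0.24). Both genes overlapped between the genotypes and did not pass the test. The level of Il11ra1 is uncertain, because 57.7% of the 31-base stretches of its transcripts occur in other genes, among them Il11ra2, and the authors left out alignments of low mapping quality.

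Of the signalling chains that pair with gp130, the LIF receptor fell and the oncostatin M receptor did not pass the test. Lifr (chr15:7090614-7197489) was at 72.2, 64.2, 77.3 and 60.1 CPM in controls 1 to 4 and at 43.0, 48.3, 44.6 and 48.8 CPM in Dnm2 +/K562E mice 1 to 4. The lowest control was above the highest Dnm2 +/K562E mouse, and the mean went from 68.5 ± 7.76 to 46.2 ± 2.83 CPM (SD, n = 4 each). The log2 fold change was -0.57 (SE 0.09, 95% interval -0.76 to -0.38, adjusted p = 3.52e-04, edgeR quasi-likelihood test), just short of the fold threshold. Osmr was at 25.8 to 32.1 CPM in controls and at 28.2 to 34.8 CPM in Dnm2 +/K562E mice, and its log2 fold change was 0.11 (95% interval -0.09 to 0.31).

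**Figure D2:**
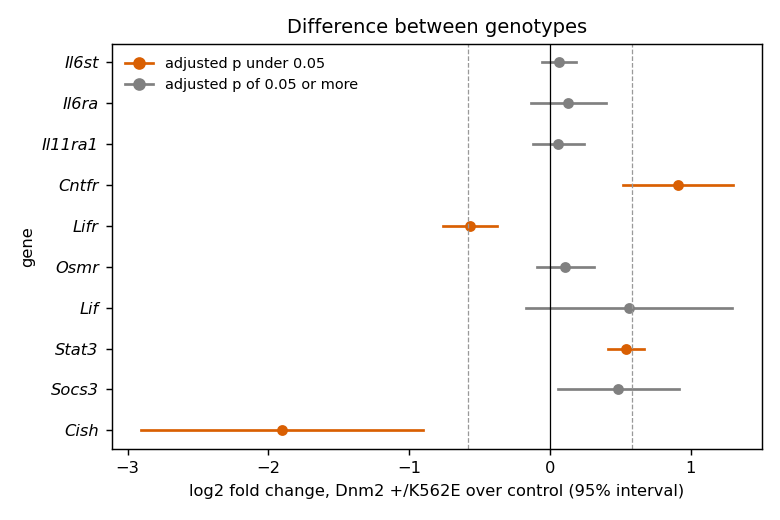
Log2 fold change of each of the 10 genes, Dnm2 +/K562E over control, from the edgeR fit over 8 mice. Points are estimates, bars are 95% intervals and dashed lines mark the fold threshold of 0.58. The intervals of Cntfr and Stat3 lie above 0 and those of Lifr and Cish below it, and that of Socs3 (0.06 to 0.91, before adjustment) also lies above 0 although its adjusted p was 0.0636 in the edgeR quasi-likelihood test.

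Because scaling can move the genotypes, each gene was also set against Il6st in the same mouse, as a ratio of counts per kilobase of exon that no library scaling can change. The Lifr to Il6st ratio was 0.238 to 0.307 in controls and 0.154 to 0.184 in Dnm2 +/K562E mice. The Cntfr to Il6st ratio was 0.0804 to 0.141 in controls and 0.171 to 0.202 in Dnm2 +/K562E mice. Neither ratio overlapped between the genotypes. Lifr was 1.89 to 3.43 times as high as Cntfr per kilobase in controls and 0.871 to 0.996 times as high in Dnm2 +/K562E mice. The Lifr to Osmr ratio was also lower in every Dnm2 +/K562E mouse, at 1.40 to 1.78 against 2.19 to 3.14. Scaled by library size alone, Il6st (log2 fold change 0.28), Osmr (0.32) and Il11ra1 (0.27) passed the test, with the median of all genes at 0.22. Ratios of Il6ra, Il11ra1, Osmr, Lif and Socs3 to Il6st overlapped between the genotypes.

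**Figure D3:**
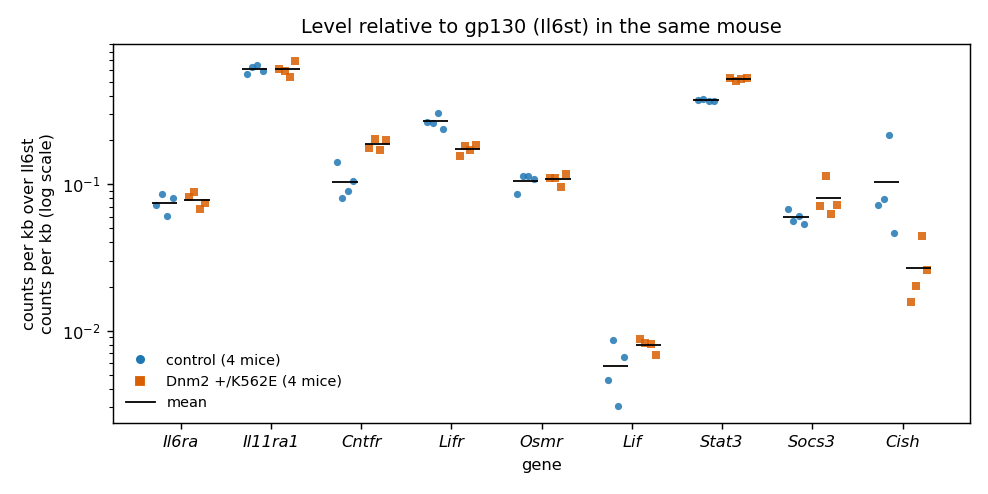
Counts per kilobase of exon of 9 genes divided by those of Il6st in the same mouse, on a log axis. Points are mice (4 controls, 4 Dnm2 +/K562E) and lines are means. Cntfr and Stat3 are higher and Lifr and Cish lower relative to gp130 in every Dnm2 +/K562E mouse.

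Per kilobase of exon, the order of mean levels in controls was Il6st (23.7 CPM per kb), Il11ra1 (14.5), Stat3 (8.87) and Lifr (6.35), each apart from the next in its range over mice. Osmr (2.49), Cntfr (2.49), Cish (2.44), Il6ra (1.76) and Socs3 (1.41) followed with overlapping ranges between neighbours, and Lif was lowest and apart from them at 0.136 CPM per kb. In Dnm2 +/K562E mice Stat3 (12.9 CPM per kb) reached the range of Il11ra1 (15.1), Cntfr (4.66) and Lifr (4.28) overlapped, and Cish (0.655) dropped below Il6ra (1.93) and Socs3 (1.98). Il6st (24.8) stayed highest and Lif (0.198) lowest. Exon bases were those of all annotated transcripts of a gene together, 6419 for Cish, 2891 for Socs3 and 8642 for Il6ra. The order between genes, and the size of any ratio per kilobase, therefore depends on the annotation. The fold difference of such a ratio between the genotypes, and whether the genotypes overlap, do not. The level of Il11ra1 is also uncertain because of its shared sequence.

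The ligands were scarce, at a few CPM or below apart from Ctf1. Lif, the leukaemia inhibitory factor, had 17, 29, 14 and 23 counts in controls 1 to 4 and 36, 38, 36 and 27 counts in Dnm2 +/K562E mice 1 to 4, or 0.51, 0.86, 0.31 and 0.68 CPM against 0.98, 0.88, 0.86 and 0.73 CPM. Control 2 lay within the range of the Dnm2 +/K562E mice. The log2 fold change of 0.56 had a wide interval at these counts (-0.17 to 1.29) and did not pass the test (adjusted p = 0.194, edgeR quasi-likelihood test).

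The counts of each list below stand beside 22.2% higher and 21.7% lower of all tested genes. Of 9 other genes of family ligands, 5 were tested with the edgeR quasi-likelihood test, of which 0 rose and 1 fell, with a median log2 fold change of 0.59. With the edgeR exact test 1 passed higher and with DESeq2 0, and at an unadjusted p under 0.05 Ebi3, a subunit shared by cytokines of the Il12 family, was higher (log2 fold change 1.00, p = 0.0327, quasi-likelihood test of edgeR). Clcf1, which encodes another ligand of the CNTF receptor, was at 3.19 CPM in control 1 and at 1.16 to 1.38 CPM in the other controls, beside 2.16 to 2.81 CPM in Dnm2 +/K562E mice. It did not pass the test over all mice (log2 fold change 0.59, adjusted p = 0.152), and without control 1 its log2 fold change was 1.06 (adjusted p = 0.00209, edgeR quasi-likelihood test).

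Ctf1, which encodes cardiotrophin and acts through the LIF receptor, fell from 9.44 ± 1.46 to 5.71 ± 0.422 CPM (log2 fold change -0.73, adjusted p = 9.88e-04, edgeR quasi-likelihood test). Cntf, with a log2 fold change of 0.11, is uncertain, since it overlaps Zfp91, which holds 78.4% of its 31-base stretches, and a read that overlaps several genes was counted for each. Il6 and Osm each had 0 to 8 counts per mouse and were not tested. Ctf2 had 0 counts in all 8 mice, which allows up to 3 counts per mouse, or 0.0672 to 0.0894 CPM, as counting error alone. Of the other receptors of the family, Il27ra and Il11ra2 were tested and neither passed. Il27ra lay above every control in each Dnm2 +/K562E mouse (log2 fold change 0.57, adjusted p = 0.0723, edgeR quasi-likelihood test). Il11ra2 is uncertain, since 100% of its 31-base stretches occur in other genes, among them Il11ra1.

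Among the 4 JAK kinases, all tested, 1 rose and 1 fell, with a median log2 fold change of -0.03. Jak1, the kinase that gp130 relies on most, was at 126 ± 6.40 CPM in controls and 133 ± 5.61 CPM in Dnm2 +/K562E mice (log2 fold change 0.08, 95% interval -0.05 to 0.21), and passed with library size alone (0.29). Tyk2 rose from 15.7 ± 1.09 to 24.1 ± 0.614 CPM (log2 fold change 0.62, adjusted p = 6.29e-05, edgeR quasi-likelihood test), with no overlap. Jak2 was at 36.2 to 54.8 CPM in controls and 30.6 to 36.3 CPM in Dnm2 +/K562E mice. It fell (log2 fold change -0.35, adjusted p = 0.0315, edgeR quasi-likelihood test), but no longer passed when control 3 or any of Dnm2 +/K562E mice 1, 2 and 3 was left out (adjusted p 0.0524 to 0.0884).

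Stat3, the main factor below gp130, rose with little spread between mice. It lies at chr11:100885098-100939540 and was at 90.0, 82.7, 82.5 and 82.7 CPM in controls 1 to 4 and at 130, 117, 121 and 124 CPM in Dnm2 +/K562E mice 1 to 4. The lowest Dnm2 +/K562E mouse was well above the highest control. The log2 fold change was 0.54 (SE 0.06, 95% interval 0.41 to 0.67, adjusted p = 3.59e-05, edgeR quasi-likelihood test), a 1.46-fold higher level that stayed under the fold threshold. Relative to Il6st in the same mouse, Stat3 was at 0.370 to 0.378 in controls and 0.502 to 0.529 in Dnm2 +/K562E mice. Its exons share 72 bases with Stat5a on the other strand, and whether strand was used in counting is not given in the sources used here. The genes with the closest profiles over the 8 mice were Mid2 (root mean square difference 0.0434), Mlip (0.0462) and Iqgap1 (0.0560).

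Of 5 other STAT genes, 4 were tested, of which 0 rose with edgeR or DESeq2, also at an unadjusted p under 0.05, and 1 fell, with a median log2 fold change of 0.08. Stat5b, which transmits growth hormone signals, was at 125, 90.0, 97.6 and 88.2 CPM in controls 1 to 4 and at 50.8, 56.3, 57.6 and 58.2 CPM in Dnm2 +/K562E mice 1 to 4. The genotypes were far apart, and the log2 fold change was -0.85 (SE 0.11, adjusted p = 1.13e-04, edgeR quasi-likelihood test). Of the 31-base stretches of Stat5b transcripts, 15.2% occur in other genes, among them Stat5a. For Stat5a the share is 11.7%, with Stat5b among the other genes. Stat3 was 0.417 to 0.545 times as high as Stat5b per kilobase in controls and 1.21 to 1.49 times as high in Dnm2 +/K562E mice, so that the order of Stat3 and Stat5b turned.

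Stat5a did not pass the test over all mice (log2 fold change 0.30, adjusted p = 0.295, edgeR quasi-likelihood test). Control 1 was at 28.4 CPM and the other controls at 12.4 to 14.5 CPM, beside 19.6 to 22.7 CPM in Dnm2 +/K562E mice. Without control 1 the log2 fold change was 0.63 (adjusted p = 2.40e-04, same test). Stat6 had a log2 fold change of 0.17 and did not pass, but with library size alone it was at 0.38 and passed (adjusted p = 0.00795, same test).

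**Figure D4:**
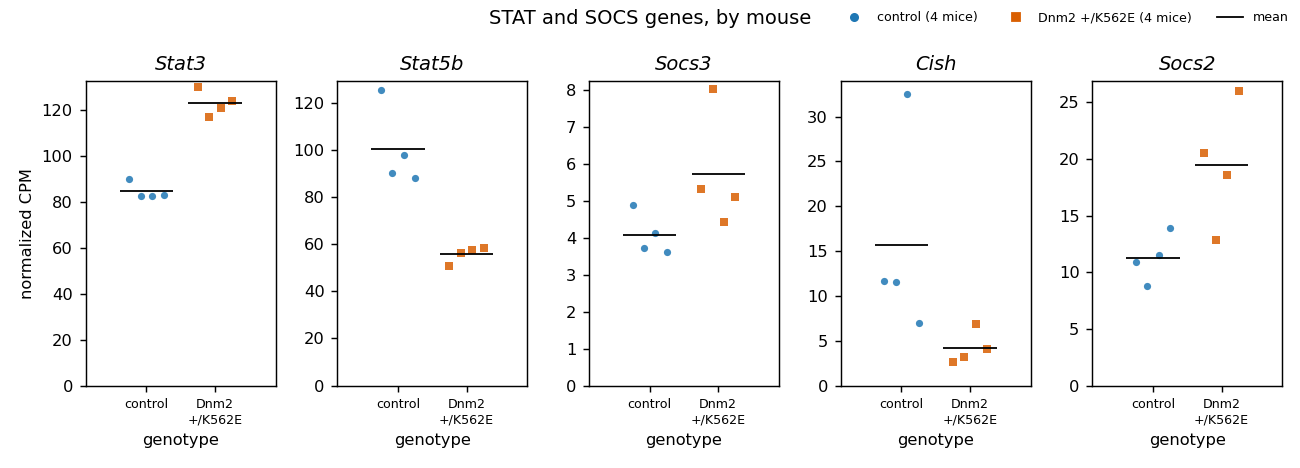
Normalized CPM of Stat3, Stat5b, Socs3, Cish and Socs2 in each mouse, with a panel and an axis from 0 for each gene. Points are mice (4 per genotype) and lines are means. Stat3 lies higher and Stat5b and Cish lower in every Dnm2 +/K562E mouse, whereas Socs3 and Socs2 overlap between the genotypes.

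Socs3, the inhibitor that STAT3 induces and that binds gp130, was at 4.89, 3.71, 4.12 and 3.62 CPM in controls 1 to 4. In Dnm2 +/K562E mice 1 to 4 it was at 5.32, 8.02, 4.41 and 5.11 CPM, from 185 to 345 counts. Dnm2 +/K562E mouse 2 stood above all others, and mouse 3 lay within the control range. The log2 fold change of 0.49 (SE 0.19, 95% interval 0.06 to 0.91) did not pass the test (adjusted p = 0.0636, edgeR quasi-likelihood test). It lay close to the threshold. The edgeR exact test gave an adjusted p of 0.0477 and DESeq2 one of 0.0441, leaving out control 1 or Dnm2 +/K562E mouse 3 gave 0.0399 and 0.0373 in the quasi-likelihood test, and leaving out Dnm2 +/K562E mouse 2 brought the log2 fold change down to 0.27 (adjusted p = 0.20). Relative to Stat3, Socs3 was at 0.144 to 0.179 in controls and 0.120 to 0.226 in Dnm2 +/K562E mice per kilobase. The closest profiles were those of Mpg (root mean square difference 0.139), Car11 (0.144) and Zfp354c (0.146), all farther away than the neighbours of Stat3 or Il6st.

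Cish, a STAT5 target and inhibitor of STAT5 signalling, had the largest change of the 10 genes and the largest spread. At chr9:107296026-107302784, it was at 11.6, 11.6, 32.5 and 6.98 CPM in controls 1 to 4 and at 2.61, 3.18, 6.92 and 4.11 CPM in Dnm2 +/K562E mice 1 to 4. Control 3 was far above the others, and the lowest control and the highest Dnm2 +/K562E mouse were almost level. Cish fell by a log2 fold change of -1.90 (SE 0.45, 95% interval -2.90 to -0.90, adjusted p = 0.00608, edgeR quasi-likelihood test), or 3.74-fold. Without control 3 it was -1.26 (adjusted p = 0.0103, same test). The coefficient of variation between mice was 72.8% in controls and 45.5% in Dnm2 +/K562E mice.

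Of the 6 other SOCS genes, all tested, 1 rose and 1 fell, with a median log2 fold change of 0.07. Socs2, which like Cish acts on growth hormone signalling, was at 10.9, 8.76, 11.5 and 13.9 CPM in controls 1 to 4 and at 20.5, 12.9, 18.6 and 26.0 CPM in Dnm2 +/K562E mice 1 to 4. It rose by a log2 fold change of 0.79 (SE 0.20, adjusted p = 0.00788, edgeR quasi-likelihood test), although Dnm2 +/K562E mouse 2 was below control 4. The Cish to Socs2 ratio per kilobase was 0.744 to 4.20 in controls and 0.189 to 0.551 in Dnm2 +/K562E mice, without overlap. Socs7 fell by a small amount (log2 fold change -0.27, adjusted p = 0.0223, same test), and no longer passed without control 2, control 3, or Dnm2 +/K562E mouse 2 or 3. Socs1, Socs4, Socs5 and Socs6 did not pass.

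All 8 genes of PIAS proteins and phosphatases that restrain STAT factors or JAK kinases were tested, of which 4 rose, 3 fell and Ptpn11 did not pass. The median log2 fold change was 0.06, and of all tested genes 22.2% passed higher and 21.7% lower. Ptpn6 (SHP-1), a phosphatase mainly of blood cells, rose most, from 2.64 ± 0.836 to 6.37 ± 1.30 CPM (log2 fold change 1.28, adjusted p = 0.00152, edgeR quasi-likelihood test). The 8 macrophage markers all rose as well, with a sum of 185 to 337 CPM in controls and 437 to 709 CPM in Dnm2 +/K562E mice, and their part in the Ptpn6 level was not tested. Ptpn1 (log2 fold change 0.26), Ptpn2 (0.34) and Pias3 (0.33) rose. Pias2 (log2 fold change -0.54, adjusted p = 1.15e-04, same test), Pias4 (-0.32) and Pias1 (-0.21) fell, although with library size alone the value of Pias1 turned to 0.0078. Pias1 no longer passed without any single mouse but Dnm2 +/K562E mouse 1, Pias3 without Dnm2 +/K562E mouse 2, and Pias4 without control 2 or 4 or Dnm2 +/K562E mouse 1, 3 or 4. With single mice left out, 1 to 2 genes of the list fell rather than 3. Ptpn11 then had adjusted p-values of 0.029 to 0.148 (edgeR quasi-likelihood test).

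Of 17 genes often induced by STAT3, 16 were found and tested, of which 7 rose and 1 fell. Of all tested genes, 22.2% passed higher and 21.7% lower. The median log2 fold change was 0.44 over the list and 0.0074 over all tested genes. The metallothioneins, which bind zinc and copper, rose, Mt2 from 16.1 ± 3.74 to 50.8 ± 9.30 CPM (log2 fold change 1.65, adjusted p = 2.2e-05, edgeR quasi-likelihood test) and Mt1 from 38.6 ± 10.6 to 69.0 ± 10.2 CPM (0.84, adjusted p = 0.0024, same test). Myc, a transcription factor of cell growth, rose with a log2 fold change of 1.00, and so did Bcl3, a partner of NF-kappaB factors, with 0.69 and the protease inhibitor Timp1 with 1.61. Bcl3 no longer passed without control 2 or Dnm2 +/K562E mouse 4.

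Junb and Fos, which encode subunits of AP-1 and respond to many stimuli within minutes, rose with log2 fold changes of 1.28 and 1.17. Fos overlapped between the genotypes, with control 1 at 12.3 CPM and Dnm2 +/K562E mouse 2 at 11.1 CPM. Junb was at 24.8 CPM in control 1 and at 7.07 to 10.2 CPM in the other controls, and without control 1 its log2 fold change was 1.81. Lrg1, a secreted glycoprotein of vessels and the acute phase, fell from 23.8 ± 2.86 to 13.1 ± 3.91 CPM (log2 fold change -0.86, adjusted p = 0.00356, edgeR quasi-likelihood test). The 8 others, among them Pim1 (log2 fold change -0.35) and Mcl1 (0.22), did not pass. Without control 1, 4 genes of the list fell. None of the 14 listed genes with a RefSeq promoter held the STAT palindrome in that window.

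All 7 genes of the STAT5 branch were tested, of which 2 rose and 2 fell, with a median log2 fold change of -0.09. The growth hormone receptor Ghr fell from 117 ± 12.2 to 94.0 ± 6.12 CPM (log2 fold change -0.32, adjusted p = 0.00943, edgeR quasi-likelihood test), and did not pass with library size alone (-0.10). Igfals, a STAT5 target that encodes the partner of circulating IGF, fell from 4.57 ± 1.40 to 1.47 ± 0.451 CPM (-1.64, adjusted p = 8.74e-04, same test). Igf1, the growth factor, rose from 43.0 ± 13.3 to 71.1 ± 14.4 CPM (0.73, adjusted p = 0.0126, same test). Its genotypes overlapped, with control 4 at 61.7 CPM and Dnm2 +/K562E mouse 2 at 61.3 CPM. The prolactin receptor Prlr rose from a level near 0, from 6 to 38 counts in controls to 67 to 132 counts in Dnm2 +/K562E mice (2.23, adjusted p = 0.00356, same test). Of the 7 genes, 3 held the STAT palindrome in a promoter window (Bcl6, Igfals and Prlr), beside 9.55% of all 27025 genes with a window.

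**Figure D5:**
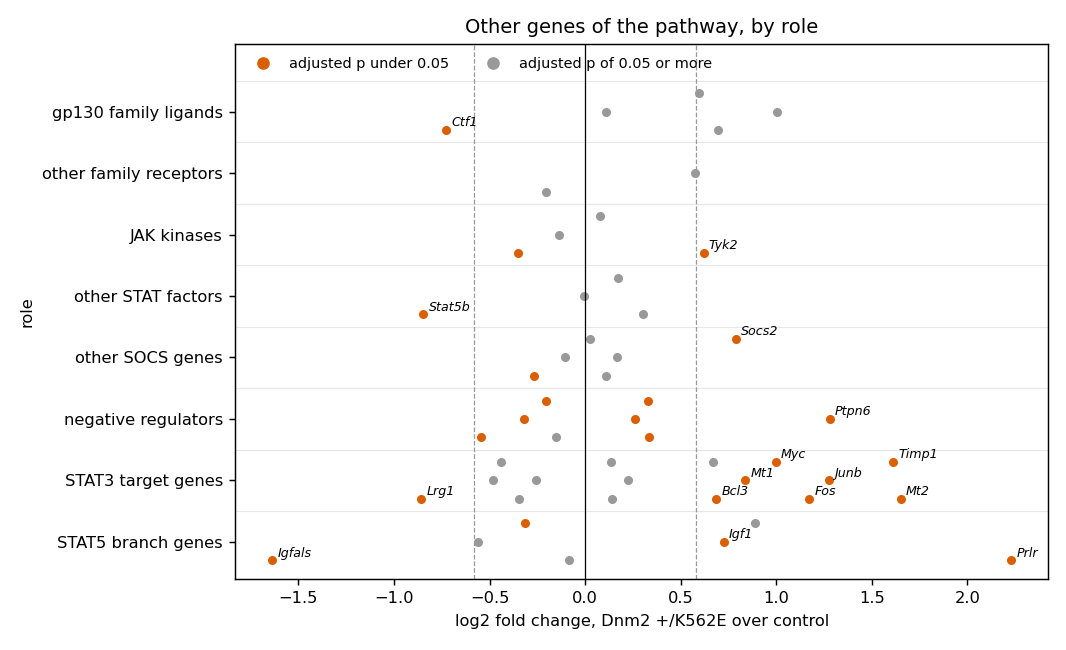
Log2 fold changes (Dnm2 +/K562E over control) of the 52 tested genes of 8 lists, grouped by role. Each point is a gene, coloured where its adjusted p was under 0.05, and dashed lines mark the fold threshold of 0.58. Genes past the fold threshold lie mostly on the right, with Igfals, Lrg1, Stat5b and Ctf1 on the left.

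Over the 8 lists, 52 of 58 genes found were tested, of which 15 rose, 10 fell and 27 did not pass, beside the 22.2% higher and 21.7% lower of all tested genes. With the fold threshold, 12 were higher and 4 lower, beside 12.9% higher and 7.85% lower of all tested genes. The median log2 fold change was 0.14, beside 0.0074 over all tested genes.

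Markers of other cells in the muscle moved between the genotypes too, and their part in the levels of the receptors and STAT genes was not tested. The endothelial markers, all 6 tested, fell, with a sum of 962 to 1026 CPM in controls and 692 to 774 CPM in Dnm2 +/K562E mice. The 6 tendon markers rose, with sums of 550 to 1068 CPM in controls and 3084 to 3950 CPM in Dnm2 +/K562E mice. Much of that sum was Thbs4, at a mean of 366 CPM in controls and 2361 CPM in Dnm2 +/K562E mice (log2 fold change 2.69). The other tendon markers had log2 fold changes of 0.98 (Comp) to 1.42 (Tnmd). Of 6 fibro-adipogenic markers, 4 rose and 1 fell, with sums of 1091 to 1511 CPM and 1856 to 2304 CPM. Of 6 satellite cell markers, 4 fell, with sums of 42.8 to 50.8 CPM and 29.2 to 36.0 CPM. Of 6 Schwann cell markers, 1 fell and 5 did not pass. Slow fibre markers fell in 7 of 8 and fast fibre markers in 6 of 8 cases. Neutrophil markers were near 0, at sums of 0.824 to 2.32 CPM and 1.56 to 5.92 CPM with Ly6g at 0 in every mouse, and T cell markers were at sums of 0.448 to 1.68 CPM and 0.919 to 2.31 CPM.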

How the data were processed

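RNA-seq was performed on soleus muscles of 4 control and 4 Dnm2 +/K562E mice. The authors trimmed reads with Trimmomatic 0.33, aligned them with STAR 2.5.1b to GRCm38.p5 with Ensembl gene models, and deposited featureCounts counts per gene and mouse without normalization, leaving out alignments of low mapping quality, keeping multi-mapping reads at their primary alignment, and counting a read for each gene it overlapped. Close copies can therefore lose reads and overlapping genes share them. The libraries were poly A-enriched per the paper's methods and made with a total RNA kit per the labels, so the library type is open.

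Symbols came from GENCODE M21 (22570 of 22880 IDs matched). Genes were kept by filterByExpr (minimum count 10, minimum total 15), scaled by TMM and tested with the quasi-likelihood F-test of edgeR 4.0.16 in R 4.3.3, with Benjamini-Hochberg adjustment over all 14001 tested genes. Standard errors are those implied by the F statistic, and intervals are not adjusted. Genes rose, fell or passed at an adjusted p under 0.05, and were called where the log2 fold change was also 0.58 or more in size. Depth was 33407430 to 48832814 counts per mouse. Counts of mice within a genotype differed by more than sampling noise (chi-square per degree of freedom 13.0 or more), so all 8 were kept as replicates.

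The 10 genes and the lists were chosen with earlier results of these data known. All 10 were named, and genes of the pathway lists where their list was described. Marker lists were given as counts and sums, with Thbs4, Comp and Tnmd named for their part in the tendon sum. Bcl6, Ctf2, Il6, Osm, Ly6g and Zfp91 were named for a count, a motif or shared reads. Promoters were taken from RefSeq. Alternatives were the edgeR exact test, library size alone or median-ratio factors for scaling, DESeq2 1.42.0, leaving genes unfiltered or asking for 10 counts in each mouse, dropping mitochondrially encoded genes or the fold threshold, a replicate block, and leaving out each mouse. The fit was tested on simulated data for this comparison. Of 196 changed genes (log2 fold change 1.5) among 13818 tested, 95.9% were recovered, with 4 false calls among 192. Smaller changes, and as many changed genes as in the data, were not simulated. Cebpd was not analysed here, and a few listed genes are not reported here and were left out of the list counts.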

Additional observations from a re-analysis of the deposited data

Results flagged for a closer look

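In 8 of 92 groups of 4 mice tested, the highest or lowest mouse stood apart from the other 3 by Dixon's ratio at the 95% level, where chance alone gives about 5% of groups. For Stat3, control 1 was at 90.0 CPM and the other controls at 82.5 to 82.7 CPM, a gap that is small beside the 117 CPM of the lowest Dnm2 +/K562E mouse. Control 1 also stood apart in Stat5a (28.4 CPM against 12.4 to 14.5), in Clcf1 (3.19 CPM against 1.16 to 1.38) and in Socs7 (67.9 CPM against 83.2 to 86.3). Control 4 was high in Ptpn2 (13.7 CPM against 11.1 to 11.5) and control 3 low in Dnm2 (59.2 CPM against 68.5 to 68.8). Dnm2 +/K562E mouse 3 was high in Cntf (5.44 CPM against 3.61 to 3.90) and Dnm2 +/K562E mouse 4 low in Ptpn6 (4.43 CPM against 6.87 to 7.21).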

How the results depend on the processing

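Stat3, Cntfr, Lifr and Cish kept their direction and passed at an adjusted p under 0.05 under every alternative run, and Il6ra and Lif passed under none. Leaving out each mouse in turn gave log2 fold changes of 0.05 to 0.09 for Il6st, 0.04 to 0.20 for Il6ra, 0.34 to 0.80 for Lif, -0.63 to -0.51 for Lifr, 0.03 to 0.17 for Osmr, -0.0021 to 0.12 for Il11ra1 (below 0 without Dnm2 +/K562E mouse 4), 0.79 to 1.12 for Cntfr, 0.51 to 0.57 for Stat3, 0.27 to 0.59 for Socs3 and -2.26 to -1.26 for Cish. It also gave 1588 to 1970 genes called higher and 1026 to 1208 lower, 2 to 3 of the 10 genes passing higher and 2 lower, and 14 to 17 pathway genes passing higher and 6 to 12 lower. The low of 6 came without Dnm2 +/K562E mouse 3. Ligand genes passing higher became 1 without control 1, 3 or 4 and lower 2 without control 3, other STAT genes higher 1 without control 1, other SOCS genes higher 2 without control 2, negative regulators lower 1 without control 2 or Dnm2 +/K562E mouse 3, and STAT3 targets lower 2 without Dnm2 +/K562E mouse 2 or 4.

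Scaling by library size alone moved the median of all genes from 0.0074 to 0.22, the calls from 1806 higher and 1099 lower to 2865 and 564, and the share of higher calls from 62.2% to 83.6%. With it 6 of the 10 genes passed higher, as did 23 pathway genes, and 5 pathway genes passed lower. Il6st (log2 fold change 0.28), Osmr (0.32), Il11ra1 (0.27) and Socs3 (0.70) then passed, as did Stat6 (0.38), Jak1 (0.29), Mcl1 (0.43) and Dnm2 (0.36), Ghr, Jak2, Pias4 and Socs7 no longer did, and Il11ra2 (0.012), Pias1 (0.0078) and Ptpn11 (0.061) changed sign. Relative to that median, Il6st stayed at 0.058 and Stat3 at 0.534. Socs3 also passed with the exact test (0.49) and DESeq2 (0.48). Leaving out single mice gave -0.053 (without Dnm2 +/K562E mouse 3) to 0.21 for Cntf. Without the fold threshold 3103 genes were higher and 3036 lower. Apart from scaling and the threshold, whose effect follows from their construction, the cause was not tested.

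Replicate numbers did not pair the mice. Deviations of same-numbered mice correlated at -0.21 to 0.0095 by title and -0.17 to 0.18 by description, and 0 and 2 of the 8 mice correlated best with their own number. With a replicate block by title number, 1637 genes were higher and 1036 lower, and by description number 1739 and 1083. Socs3 was at 0.46 with either block and passed only with the block by description number (adjusted p = 0.0335 against 0.117, edgeR quasi-likelihood test), and Jak2, Pias1, Pias3 and Socs7 no longer passed with the block by title number. Low counts limit the precision for Lif, Clcf1, Prlr and Epor, and the genes under the filter were not tested.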

Other observations

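Immediate early genes respond within minutes to stress or handling of a tissue. Of 12 such genes, 3 rose (Fos, Junb and Egr2), 3 fell (Jun, Nr4a1 and Btg2) and 6 did not pass. Of all tested genes, 22.2% passed higher and 21.7% lower. The median log2 fold change of the 12 genes was 0.25. Their summed level was 472 to 513 CPM in controls and 349 to 510 CPM in Dnm2 +/K562E mice, so that the sums overlapped. Il27, which was not tested, had 12, 11, 10 and 16 counts in controls 1 to 4 and 6, 8, 4 and 5 counts in Dnm2 +/K562E mice 1 to 4, lower in each Dnm2 +/K562E mouse than in any control. The same held for 20.5% of all tested genes. Exons of Il27 share 103 bases with another counted gene, which adds to the uncertainty of these low counts.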
